A study of Danio rerio with 6 samples.

Results

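The genes described here are the cyclins, the cyclin-dependent kinases (Cdks) and the genes that license and run DNA replication and mitosis in the zebrafish embryo. They were chosen by gene symbol alone, from the prefixes ccna, ccnb, ccnd, ccne, cdk with a digit, cdkn, cdc, mcm and orc with a digit, bub, aur, plk, wee and chek, together with pcna, cdt1 and mad2l1. The genes ccng1, cdkn1a and cdk5r1a and all reverse-strand targets were left out. On the array 109 of 38489 targets carried such a symbol, and 1 target per symbol, the brightest in the authors' value table, gave 77 members, of 10677 genes named in all. No symbol with the prefix bub and no cdt1 was among them. Also without a member were cdk1, cdk2, cdc25a, cdc6, mcm2, mcm6 and mcm7, so the groups of Cdks and licensing genes below are incomplete. Prefixes also bring in genes of other roles, such as those around the small GTPase Cdc42, and these are kept apart below.

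Total RNA of whole zebrafish embryos at the sphere stage was labelled with Cy3 and hybridised to 1-colour expression arrays. Embryos of the control group had been injected with a control morpholino and had a normal phenotype per the labels. Embryos of the other group had been injected with nanog-like MO1, a morpholino against the homeobox factor gene now called nanog, and had a gastrulation defect per the labels. Each group had 3 arrays, called biological replicates from separate cultures. A morpholino is an antisense oligonucleotide that blocks translation or splicing, and the labels used here give no dose, no mode of action and no number of embryos per culture. Levels below are normalized intensities on the log2 scale, fold changes are nanog-like MO1 over control, and a gene passed the test when its adjusted p (limma, Benjamini-Hochberg over all targets) was under 0.05.

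Cyclins rise and fall through the cell cycle and switch on the Cdks that drive DNA replication and mitosis. D cyclins work with Cdk4 and Cdk6 in G1, E and A cyclins with Cdk2 in S phase, and B cyclins with Cdk1 in mitosis. Before replication, the origin recognition complex, Cdc6 and Cdt1 load the Mcm helicase on DNA, which is the step called licensing. The early zebrafish embryo divides by fast, near-synchronous cycles without gap phases, run on proteins and messages that the mother placed in the egg. At the midblastula transition the cycles lengthen and the embryo's own genome becomes active, and the sphere stage follows soon after.

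Among the 77 members a single gene, ccnd1, passed the test. This gene encodes cyclin D1, and its target was lower in nanog-like MO1 embryos. The target was named through its map marker alone and ccnd1 has no further target, so its identity is uncertain. The counts were 1 lower, 0 higher and 76 that did not pass. Over all targets 0.647% passed in either direction, 0.39% lower and 0.257% higher. Over the targets above the 75th percentile of brightness 0.603% passed, so a count of 1 among 77 lies near the background. A count of 0 in the smaller groups below also lies near it. In the authors' value table the count was also 1, again ccnd1, against 0.959% of all targets. The median log2 fold change was -0.011 over the members and -0.012 over all targets. At an unadjusted p under 0.05 there were 4 members, 2 higher and 2 lower, against 10.3% of all targets. For 10 members no array of 1 group lay within the range of the other, 5 higher and 5 lower, against 15.3% of all targets (7.36% higher, 7.97% lower) and 15.2% of those above the 75th percentile. Log2 fold changes ran from -1.11 to 0.71, and 1 member reached a size of 1, against 1.76% of all targets. A 95% interval inside -1 to 1, that is, less than a 2-fold difference either way, was found for 75 of 77 members, compared with 86.8% of all targets and 95.2% of targets above the 75th percentile of brightness. The exceptions were ccnd1 and the target named plk2 (1 of 2). An interval inside -0.5 to 0.5 was found for 45 of 77 (58.4%), close to the 54.4% of targets above the 75th percentile and against 43.9% of all targets. Brightness matters for this, since 54 of the 77 members lay above the 75th percentile of target means and 5 (cdk15, cdk5r1b, cdk5r2b, cdc14aa and cdc42l2) below the 25th, where differences are compressed.

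**Figure D1:**
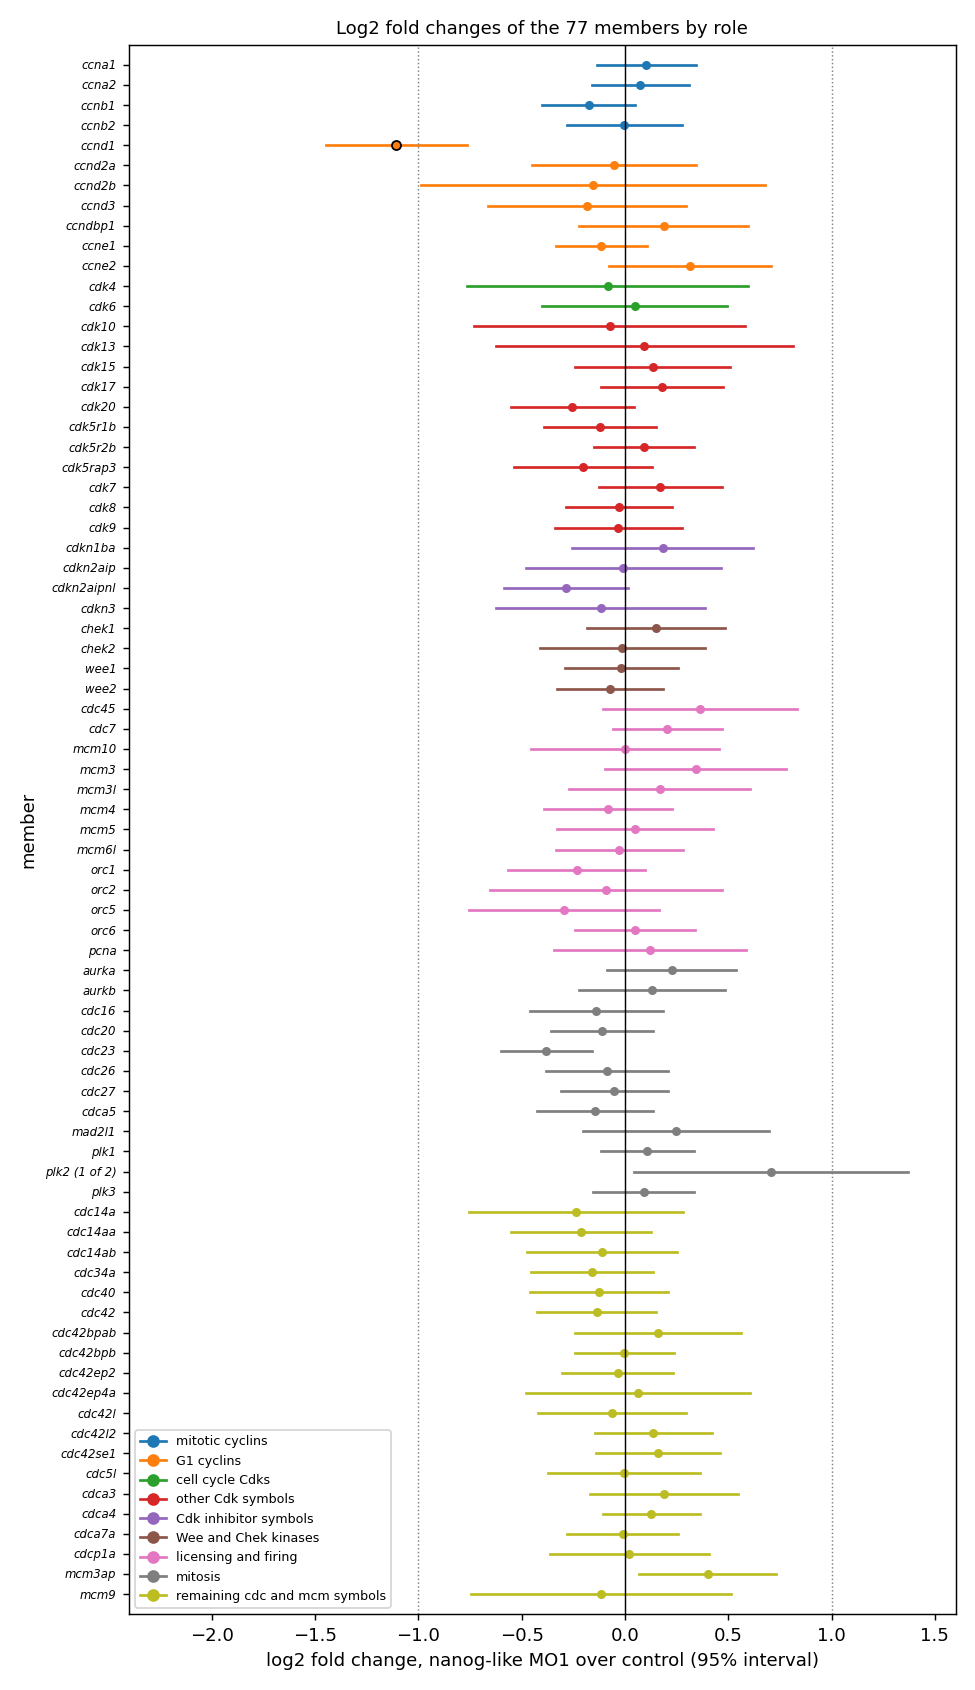
Log2 fold change, nanog-like MO1 over control, of each of the 77 members on the x axis, with its 95% interval as a bar, coloured by role and listed by role on the y axis; the outlined point passed the test and dotted lines mark -1 and 1. The point of ccnd1 at -1.11 stands apart on the left, plk2 (1 of 2) at 0.71 has the bar that reaches furthest to the right, and the other points lie between -0.38 and 0.40.

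The G1 cyclins were 7 symbols, including ccndbp1, which encodes a protein that binds cyclin D and is not a cyclin. The ccnd1 target ZV700S00004214, placed by the array design on Zv7 chromosome 7 from 59224423 to 59231745 and named through its map marker, had levels of 13.76, 13.70 and 13.88 on the control arrays and of 12.55, 12.54 and 12.94 on the nanog-like MO1 arrays. Every nanog-like MO1 array lay below every control array, and replicate 3 lay closest to the controls. The mean went from 13.78 ± 0.09 to 12.68 ± 0.23 (SD, n = 3), a fall of 2.15-fold. The log2 fold change was -1.11 (SE 0.14, 95% interval -1.45 to -0.76, adjusted p = 0.0329). In the authors' value table it was -1.26 (adjusted p = 0.0211). The exact permutation test of this single level gave p = 0.1, 2-sided, the smallest that 3 against 3 arrays allow.

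The call on ccnd1 rested on all of the arrays but 1. Leaving out 1 array at a time kept the log2 fold change between -1.24 and -1.04, but the adjusted p passed only without nanog-like MO1 replicate 3 (adjusted p = 0.035) and ran from 0.0991 to 0.156 without any other array. The array numbers in the labels fall into ranges, and 1 range holds the 3 control arrays and nanog-like MO1 replicate 3. The other nanog-like MO1 arrays have no control array in their range, so for them group and range cannot be told apart. Within the shared range the log2 fold change was -0.84. With that range as a batch term ccnd1 did not pass, and the difference rested on 1 nanog-like MO1 array. In whole embryos, fewer cells of a type and less RNA per cell cannot be told apart. Of 4 listed markers of the yolk syncytial layer, an extraembryonic layer that borders the yolk, 3 were measured. Of these mxtx2 (log2 fold change -2.69) and gata6 (-2.37) passed, lower, and hnf4a (0.20) did not. The summed linear intensity of the 3 ran from 8885 to 9971 on control arrays and from 5383 to 6018 on nanog-like MO1 arrays. Since mxtx2 and gata6 fell and hnf4a did not, this sum does not measure how much of the layer was present. The part of these cells in the ccnd1 level was not tested.

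No other D or E cyclin passed. The levels of ccnd2a were 11.38, 11.06 and 11.12 on control arrays and 10.87, 11.17 and 11.37 on nanog-like MO1 arrays, so that the groups overlapped, with a log2 fold change of -0.05 (95% interval -0.45 to 0.35). The dimmer targets of ccnd2b and ccnd3 had log2 fold changes of -0.16 (95% interval -0.99 to 0.68) and -0.18 (95% interval -0.66 to 0.30), and the interval of ccnd2b nearly reaches a 2-fold fall. The log2 fold change of ccnd1 minus that of ccnd2a was -1.06, minus that of ccnd2b -0.95 and minus that of ccnd3 -0.93, each with p = 0.1 by a 2-sided exact permutation test over arrays. That is the smallest p possible here, and 5 such pairs were compared, so none of these differences can pass a threshold of 0.05.

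The E cyclins, which work at the entry into S phase, had values of opposite sign, and neither passed. The target of ccne1 read 14.00, 13.97 and 14.04 on control arrays and 13.84, 13.93 and 13.88 on nanog-like MO1 arrays, lower on each without overlap, at a log2 fold change of -0.11 (95% interval -0.34 to 0.11, adjusted p = 0.771). Its further target gave -0.07, with overlapping groups. The target of ccne2 read 11.79, 11.94 and 11.89 against 12.00, 12.03 and 12.52, higher on each nanog-like MO1 array, mostly by replicate 3, at 0.31 (95% interval -0.08 to 0.71, adjusted p = 0.599). The log2 fold change of ccnd1 minus that of ccne1 was -0.99 and minus that of ccne2 -1.42, with p = 0.1 each in the same exact permutation test.

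**Figure D2:**
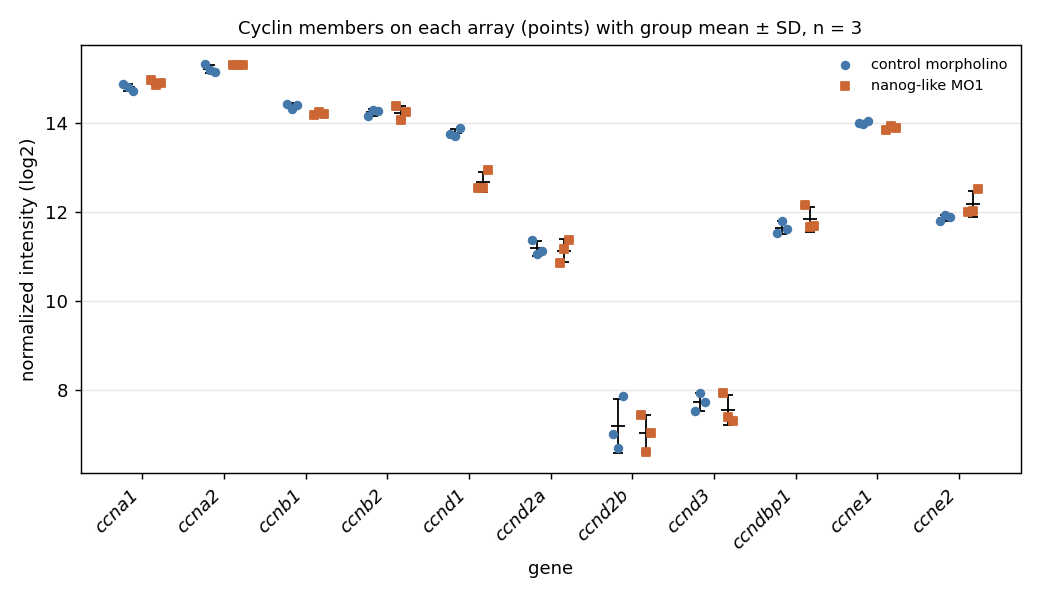
Normalized intensity (log2, y axis) of the 11 cyclin symbols on each array, control as circles and nanog-like MO1 as squares, with the group mean and SD (n = 3) in black. The squares of ccnd1 (12.54 to 12.94) lie wholly below its circles (13.70 to 13.88), whereas for the other symbols the group means differ by 0.31 or less; heights of different genes are not comparable, since each has its own probes.

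The A and B cyclins, the partners of Cdk2 and Cdk1, were all above the 75th percentile of brightness, and 0 of 4 passed. All had a 95% interval within -0.5 to 0.5, as did 54.4% of targets above the 75th percentile. The target of ccna1, a cyclin A of germ cells and early embryos in mammals and Xenopus, read 14.88, 14.81 and 14.72 on control arrays and 14.97, 14.85 and 14.90 on nanog-like MO1 arrays, a log2 fold change of 0.10 (95% interval -0.13 to 0.34). That of ccna2 read 15.32, 15.19 and 15.15 against 15.30 on each nanog-like MO1 array. The equal values arise because it ranked 5 from the brightest on all 3 of these arrays and quantile normalization gives equal ranks equal values. The SD of 0 there is thus no sign of precision. The 95% interval of ccna2 draws on this SD, so its width is no sign of precision either. The groups of ccnb1, the mitotic cyclin B1 gene, did not overlap on the chosen target, with 14.42, 14.32 and 14.41 against 14.18, 14.25 and 14.20. Its log2 fold change was -0.18 (95% interval -0.40 to 0.05, adjusted p = 0.608). This chosen target was named through its map marker and lies on an unplaced scaffold. The 2 further targets, which carry ccnb1 as their symbol, had log2 fold changes of -0.02 and -0.15 with overlapping groups. For ccnb2 the log2 fold change was -0.003 (95% interval -0.28 to 0.28).

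Of the cell cycle kinases proper, cdk4 and cdk6 were members and neither passed. These are the partners of the D cyclins. The target of cdk6 read 11.98, 12.60 and 12.32 on control arrays and 12.13, 12.44 and 12.46 on nanog-like MO1 arrays, a difference of 0.05 (95% interval -0.40 to 0.49) with overlapping groups. That of cdk4 was dimmer and more scattered, at -0.08 (95% interval -0.76 to 0.59), the wider interval of the pair. Of 11 other symbols of the form cdk plus a digit, 0 passed and all lay within -0.25 to 0.18. Among them are cdk7, the Cdk-activating kinase of TFIIH, cdk8 of the Mediator complex and cdk9, the kinase of P-TEFb that releases paused RNA polymerase II. Their log2 fold changes were 0.17, -0.03 and -0.03. The chosen cdk9 target was named through its map marker and has no position, and a further target that carries the symbol had 0.10. The smallest unadjusted p values in this group were those of cdk20 (-0.25, adjusted p = 0.571) and cdk5rap3 (-0.20, adjusted p = 0.719).

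Genes with the prefix cdkn gave 4 members and 0 calls. The Cdk inhibitor gene cdkn1ba, of the p27 family, had a log2 fold change of 0.18 (95% interval -0.26 to 0.62), and cdkn3, a phosphatase gene, -0.12. The other members, cdkn2aip and cdkn2aipnl, encode a protein that binds the protein ARF in mammals and a relative of this binding protein. The groups of cdkn2aipnl did not overlap, at 10.76, 10.86 and 10.67 against 10.30, 10.64 and 10.49, with a log2 fold change of -0.29 (95% interval -0.59 to 0.02, adjusted p = 0.517). Its further target had -0.31 with overlapping groups.

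The Wee kinases, which hold Cdk1 inactive by phosphorylation, and the checkpoint kinases Chek1 and Chek2 gave 4 members and 0 calls. Chek1 is known from zebrafish, Xenopus and Drosophila for its part in lengthening the cell cycle at the midblastula transition. The target of chek1 read 12.71, 12.49 and 12.47 on control arrays and 12.84, 12.81 and 12.48 on nanog-like MO1 arrays. Replicate 3 overlapped the controls and the others lay above them, at a log2 fold change of 0.15 (95% interval -0.18 to 0.49). For chek2, wee1 and wee2, the last an egg-specific form in mammals, the values on the chosen targets were -0.01, -0.02 and -0.07, with groups that overlapped. The intervals of the 4 chosen targets lay within -0.5 to 0.5, as did those of 43.9% of all targets. The chosen wee1 target was named through its map marker, so its identity is uncertain. The array design lists it close to the wee2 targets, but these are of another type and may not share its coordinates. Further targets differed from the chosen ones, and none passed. The further target that carries wee1 as its symbol had 0.35 (95% interval 0.08 to 0.62). Those of wee2 had -0.34 (95% interval -0.73 to 0.05) and -0.13.

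Members of licensing and origin firing numbered 13, from orc1, orc2, orc5 and orc6 of the origin recognition complex, through mcm3, mcm3l, mcm4, mcm5, mcm6l and mcm10, to the kinase gene cdc7, the helicase cofactor gene cdc45 and pcna, the sliding clamp. Of these 0 passed, 7 had positive and 6 negative log2 fold changes, and the median was 0.05. All 13 intervals lay within -1 to 1, against 86.8% of all targets. Within -0.5 to 0.5 lay 6 of them (46.2%), near the 43.9% of all targets. Among genes of the core helicase and their relatives, log2 fold changes were 0.34 for mcm3, 0.17 for mcm3l, -0.08 for mcm4, 0.05 for mcm5 and -0.03 for mcm6l. Further targets of mcm5 and mcm6l had -0.17, of opposite sign, and -0.15. The array design gives MCM7 as the human counterpart of the target named mcm4, so its identity is uncertain.

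Values of mcm3 and cdc45 were furthest above 0 in this group, and those of orc5 and orc1 furthest below. The target of mcm3 read 11.30, 11.65 and 11.50 on control arrays and 11.84, 11.51 and 12.13 on nanog-like MO1 arrays, an overlap by replicate 2, at 0.34 (95% interval -0.09 to 0.78, adjusted p = 0.609). For cdc45 the readings were 10.86, 10.99 and 10.60 against 11.37, 11.38 and 10.80, with replicate 3 inside the control range, at 0.36 (95% interval -0.11 to 0.83, adjusted p = 0.615). The log2 fold change of orc5 was -0.30 (95% interval -0.76 to 0.16) and that of orc1 -0.23 (95% interval -0.56 to 0.10), both with overlapping groups. Their further targets had -0.23 for orc5 and -0.07 for orc1. The target of pcna read 12.76, 13.35 and 12.76 against 13.24, 12.91 and 13.09. Control replicate 2 was its highest reading, and the log2 fold change was 0.12 (95% interval -0.34 to 0.59).

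**Figure D3:**
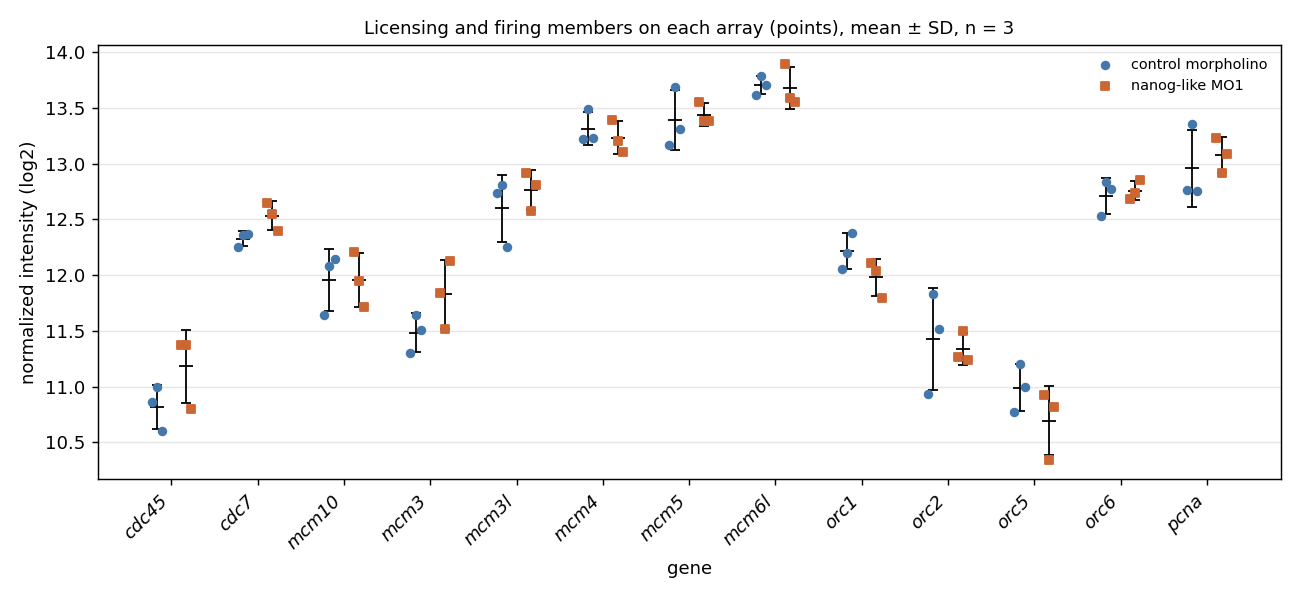
Normalized intensity (log2, y axis) of the 13 licensing and firing members on each array, control as circles and nanog-like MO1 as squares, with the group mean and SD (n = 3) in black. The circles and squares overlap for all but cdc7, while 15.3% of all targets had no overlap. The group means differ by at most 0.36, and heights of different genes are not comparable.

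Members acting in mitosis numbered 12, with 0 called and a median of 0.02. They hold the kinase genes aurka, aurkb, plk1 and plk3, the spindle checkpoint gene mad2l1, the cohesin regulator gene cdca5, and cdc20, cdc16, cdc23, cdc26 and cdc27 of the anaphase-promoting complex, which marks cyclin B for destruction, or its activator. The mitotic kinase gene plk1 read 14.50, 14.38 and 14.41 against 14.58, 14.50 and 14.55, at 0.11 (95% interval -0.12 to 0.33). The values of aurka, aurkb and mad2l1 were 0.23, 0.13 and 0.25, and none passed.

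Of the 4 subunit genes of the anaphase-promoting complex none passed. Their log2 fold changes were below 0, as were those of 20380 of all 38489 targets, but with arrays centred on reference genes those of cdc26 and cdc27 were above 0, at 0.10 and 0.02. The target of cdc23 read 11.95, 11.90 and 11.84 on control arrays and 11.52, 11.51 and 11.52 on nanog-like MO1 arrays, without overlap and with little scatter. Its log2 fold change was -0.38 (SE 0.09, 95% interval -0.60 to -0.16, adjusted p = 0.217), and in the authors' value table it was -0.33 (adjusted p = 0.53). The values of cdc16, cdc26 and cdc27 were -0.14, -0.09 and -0.05, that of the activator gene cdc20 was -0.11, and the groups of these overlapped. The annotation of the cdc26 target names PRPF4 as its human counterpart, so the identity of this target is uncertain.

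The largest value above 0 among all members belonged to the target named plk2 (1 of 2), an Ensembl name for 1 of the zebrafish copies of a polo-like kinase gene known in mammals as a stress-responsive early gene. It read 8.28, 8.72 and 7.59 on control arrays and 9.00, 8.83 and 8.89 on nanog-like MO1 arrays. The groups did not overlap, and control replicate 3 was the lowest by far. The log2 fold change was 0.71 (SE 0.28, 95% interval 0.04 to 1.37, adjusted p = 0.451), and in the authors' value table it was 1.15 (adjusted p = 0.299). A further target of the gene gave 0.64 with overlapping groups.

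The remaining 20 symbols with the prefixes cdc and mcm, of which 0 passed, mostly serve other roles. They include cdc42 and 7 further symbols of effectors, binding kinases and relatives of this GTPase, the splicing factor genes cdc5l and cdc40, and the Cdc14 phosphatase genes. The value of cdc42 was -0.14, and those of the 7 ran from -0.06 to 0.16. The target of mcm3ap, whose mammalian product acts in export of messenger RNA, read 12.52, 12.23 and 12.43 against 12.97, 12.60 and 12.82. That is without overlap, at 0.40 (95% interval 0.07 to 0.73, adjusted p = 0.383). The value of cdca7a was -0.01 and that of cdc14aa, a dim target, -0.21.

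For 27 of the 77 symbols the array holds further targets, 32 in all, and they show how far the value of a symbol depends on the target chosen. What sets targets of a symbol apart was not tested. Several further targets, such as those of ccna2 and ccne1, cover nearly the same positions as the chosen target, so their values are not independent of it. Of the 32, 0 passed, 26 had the sign of the chosen target, and 28 differed from it by less than 0.25 on the log2 scale, with a median difference of 0.06. The exceptions were single targets of cdc7, wee1, wee2 and cdc27. The chosen target of cdc7, the kinase that fires licensed origins, read 12.25, 12.36 and 12.37 on control arrays and 12.65, 12.55 and 12.39 on nanog-like MO1 arrays, at 0.21 (95% interval -0.06 to 0.47). Another read 11.39, 11.37 and 11.14 against 11.12, 10.79 and 10.70, at -0.43 (95% interval -0.78 to -0.08, adjusted p = 0.377), and 1 more gave 0.15. In the authors' value table the target at -0.43 had 0.05. For wee1 the chosen target had -0.02. Another, listed elsewhere on chromosome 18 but perhaps in other coordinates, read 12.59, 12.74 and 12.77 against 13.09, 12.92 and 13.14. It was higher on each nanog-like MO1 array, at 0.35 (limma, adjusted p = 0.345). For cdc27 the further targets had -0.02 and -0.30, against -0.05 on the chosen one.

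**Figure D4:**
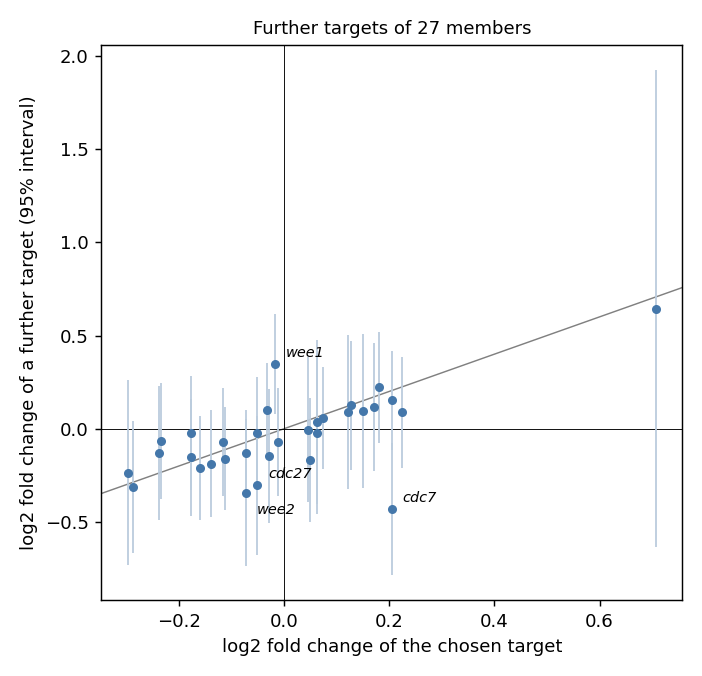
Log2 fold change of each of the 32 further targets (y axis, with 95% interval) against that of the chosen target of the same symbol (x axis), for 27 members; the grey line marks equal values. Most points follow the line, a target of cdc7 lies at 0.21 on the x axis and -0.43 on the y axis, and those of wee1, wee2 and cdc27 also lie off the line.

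Other genes of the cell cycle, from lists chosen by function, gave 62 measured genes of 107 listed, with 0 higher, 0 lower and 62 that did not pass, and a median of -0.006. At an unadjusted p under 0.05 (limma) there were 1 higher and 1 lower, against 10.3% of all targets. Of 11 E2F and pocket protein genes, which control the G1 to S step downstream of cyclin D, rbl2 had the smallest p, at 0.51 (SE 0.15, adjusted p = 0.298), from 8.22 ± 0.15 to 8.72 ± 0.21 (SD, n = 3). Of 25 replication fork genes the smallest p was that of rpa3, a subunit of the single-strand binding protein, at -0.26 (adjusted p = 0.588). The corresponding genes were anapc4 among 6 genes of anaphase and exit (-0.24, adjusted p = 0.563), the cohesin gene rad21b among 15 of chromosomes and spindle (-0.35, adjusted p = 0.474) and the kinase gene atm among 5 of the DNA damage checkpoint (0.31, adjusted p = 0.593).

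Facts of the whole series that bear on these values are few. Raw median intensities lay between 408 and 529, and each array held 387190 probes. Of 6 blastula markers 5 were measured, and all 5 lay above the median of target means. Of muscle, blood and neuron markers, 1 of 4, 1 of 3 and 0 of 3 did, and none lay above the 75th percentile. Of 6 measured genes of the enveloping layer and 4 of primordial germ cells, 0 passed (limma). At an unadjusted p under 0.05 (limma) there were 1 and 0, against 10.3% of all targets. Over all targets 99 were higher and 150 lower, and with arrays centred on 12 reference genes 178 and 141.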

How the data were processed

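For each array the authors deposited 1 linear intensity per target, the mean of its perfect-match probes, per the file headers. The authors' value table holds RMA intensities per the submitters' processing notes, whose scaling beyond that name is unknown. The members and lists were chosen with earlier results of these data known. Targets were named by RefSeq accession, current or older symbol (RefSeq gene table of GRCz12tu, names only) or map marker. Positions come from the array's design file (Zv7). Targets of different types may not share coordinates there. For example, the 2 pcna targets start at 27348985 and 36876516 on chromosome 10 with nearly the same length. Intensities were corrected with normexp (offset 50), quantile normalized and taken to log2, because they were not normalized between arrays. limma 3.58.1 in R 4.3.3 tested all 38489 targets, 2-sided, with group as the only term. Intervals use the moderated SE with 6.49 degrees of freedom. The fit was tested on data simulated with independent arrays and no array ranges, which cannot show how such ranges affect the calls. Named genes were a fixed list of 28 symbols, of which 20 had a member, plus any member that passed, and per role those with the 2 smallest p and the highest intensity, 35 in all. Of the other lists, those with the smallest p are named. Further members named outside this rule (among them ccnd2a, orc5 and mcm3l) were chosen after their values were seen. The number of arrays limits the precision. Correlations of same-numbered deviations (-0.013, -0.097 and 0.17) lay within those of differently numbered arrays (-0.30 to 0.26). With 3 arrays per group this cannot settle whether the replicate numbers pair the arrays. No sequence table was used here.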

Additional observations from a re-analysis of the deposited data

How the results depend on the processing

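The fall of ccnd1 and the count of 1 member that passed, ccnd1, held without background correction, with median scaling and with reference gene centring. They also held in the authors' value table and without dim targets. The adjusted p of ccnd1 (limma) ran from 0.0121 to 0.0402 over these. The count was also 1 with the mean of a symbol's targets and with the target chosen by per-array intensity. Since ccnd1 has 1 target, its log2 fold change could not change in these last settings. With a replicate block 0 members passed (ccnd1 -1.11, adjusted p = 0.0736) and the calls over all targets were 46 higher and 88 lower. Whether the replicate numbers pair the arrays could not be settled. When the range of array numbers entered as a batch, the difference rested on 1 nanog-like MO1 array. Then 0 members passed (ccnd1 -0.84, adjusted p = 0.301), and limma called 0 higher and 0 lower over all targets, against 1904 and 1676 with unadjusted p under 0.05. Leaving out 1 array at a time gave 0 to 1 members, ccnd1 from -1.24 to -1.04, and 35 to 66 higher and 60 to 119 lower over all targets, the fewest without control replicate 3. These fits have fewer arrays, and no other cause was tested. Reference gene centring gave 178 higher and 141 lower, against 99 and 150, and the authors' values 163 and 206. Centring shifted all targets: their median was 0.117 with reference genes and -0.0997 with median scaling, and the members' median, 0.0966 and -0.12, followed. Of 490 values of named members under these settings, 483 kept their side of the threshold and 0 gained a call. The 7 that lost it were all of ccnd1, the only member with a call to lose. The 483 come mostly from members that passed in no fit, so they do not measure how firm the ccnd1 call is. Of the values that passed in neither fit, 49 changed sign.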

Other observations

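A further 71 targets had no zebrafish symbol but carried a human counterpart with the same prefixes in the array design. They were not counted above, since a counterpart does not settle which zebrafish gene is read. Some overlap members in their listed positions, such as targets of CDC42 and CDC14A, so the 71 are not a set separate from the members. Of these 0 passed (limma), with a median of -0.036. At an unadjusted p under 0.05 (limma) there were 7, 3 higher and 4 lower, against 10.3% of all targets. The 71 hold counterparts of genes missing from the members, spindle checkpoint genes included. The 2 targets with BUB3 as counterpart had 0.57 (adjusted p = 0.489) and 0.57 (adjusted p = 0.498), with overlapping groups. The 3 with BUB1 had -0.07, -0.11 and -0.27, the last without overlap (95% interval -0.53 to -0.0003, adjusted p = 0.483). For the counterpart of CDC2, the mitotic Cdk1 gene, the log2 fold change was 0.42 (95% interval 0.09 to 0.76, adjusted p = 0.361), without overlap. Other log2 fold changes were -0.06 for CDK2, -0.09 for CDC25A, the phosphatase that activates Cdks, -0.06 for CDC6, 0.02 for CDT1 and 0.17 for MCM2. The largest was 0.82 for ORC4L (95% interval 0.38 to 1.27, adjusted p = 0.188), a subunit of the origin recognition complex, with groups that did not overlap. Of 3 targets with MCM7 as counterpart, the values were 0.08, -0.07 and -0.55, and none passed. Those with MCM6 as counterpart had -0.17, -0.22 and -0.03, with overlapping groups.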
